A study of Mus musculus with 2 samples.

Results

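The T cell receptor beta, gamma and delta segments are the gene pieces from which these 3 receptor chains are assembled and made. They were taken as every locus of the deposited gene table with a T cell receptor gene biotype (pseudogenes left out) whose symbol starts with Trb, Trd, Trg or Tcrg. This gave 64 of 55246 loci, namely 39 beta, 15 gamma and 10 delta segments. The measurements are RNA-seq read counts from Treg cells, the regulatory CD4 T cell lineage defined by the transcription factor Foxp3, taken from the lamina propria (the connective tissue under the epithelium) of the colon of female mice. There was 1 library from wild-type mice (WT) and 1 from mice labelled Exon2KO, whose Foxp3 lacks exon 2. The labels give no age, strain, sorting gate or number of mice per library. With 1 library of each genotype no difference can be set against a spread between samples, so every test below compares these libraries and not the genotypes, and every interval covers counting error only. In bulk RNA, fewer cells that use a segment and less RNA per cell cannot be told apart, and a read is neither a cell nor a clone.

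Each T cell carries a receptor made of an alpha and a beta chain, or of a gamma and a delta chain. The variable end of a chain is joined in the developing thymocyte from V and J segments, with D segments between them in beta and delta, and the joined exon is then spliced to a constant (C) segment that anchors the chain in the membrane. Treg cells use alpha-beta receptors, whereas gamma-delta T cells are a separate lineage found in gut and skin. The mouse beta locus has a pair of D-J-C clusters, so that a V segment can be joined to either, and the delta segments lie inside the alpha locus.

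The beta segments lie on chr6:40891229-41558452, the gamma segments on chr13:19178024-19352756 and the delta segments on chr14:53881612-54149294 (GRCm38). The sequences that tell the main segments apart are given here, from the GENCODE M21 transcripts on the same build, 5′ to 3′ on the coding strand. The last 60 coding bases of a V segment carry the cysteine codon at which the most variable loop begins. Capitals mark the letters TGTGC, whatever the reading frame, and Tcrg-V4 and Trdv1 lack these letters.
Trbv3: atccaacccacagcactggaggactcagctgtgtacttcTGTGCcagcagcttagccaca
Trbv12-1: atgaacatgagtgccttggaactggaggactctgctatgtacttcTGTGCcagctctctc
Trbv12-2: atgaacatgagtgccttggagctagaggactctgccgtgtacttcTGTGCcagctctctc
Trbv13-2: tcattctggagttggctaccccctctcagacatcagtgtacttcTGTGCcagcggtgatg
Trbv19: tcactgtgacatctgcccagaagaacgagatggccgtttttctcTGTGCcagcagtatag
Trbv23: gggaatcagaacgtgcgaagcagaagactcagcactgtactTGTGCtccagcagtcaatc
Tcrg-V4: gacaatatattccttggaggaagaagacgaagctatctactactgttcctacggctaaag
Trdv1: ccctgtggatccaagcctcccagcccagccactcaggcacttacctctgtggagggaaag
These stretches are at chr6:41048769-41048828 (+) for Trbv3, chr6:41114008-41114067 (+) for Trbv12-1 and chr6:41119305-41119364 (+) for Trbv12-2. Those of Trbv13-2, Trbv19 and Trbv23 are at chr6:41121773-41121832 (+), chr6:41178989-41179048 (+) and chr6:41216467-41216526 (+). Tcrg-V4 is at chr13:19185447-19185506 (+) and Trdv1 at chr14:53882158-53882217 (+). The letters TGTGC occurred on the coding strand of 19 of the 22 beta V stretches and on the reverse strand of 0. They occurred in 5.86% of promoter windows of the same length from RefSeq (GRCm38) on that strand, and in 11.3% on either strand.

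The J segments are short and were chosen to show the ends of both clusters and, with Trbj1-6, a segment that lacks the motif. Capitals mark the letters TTN, GGN, NNN and GG in a row, where N is any base, which encode the phenylalanine, glycine, any residue, glycine motif of most J segments.
Trbj1-1: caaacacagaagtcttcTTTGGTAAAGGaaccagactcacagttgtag
Trbj1-6: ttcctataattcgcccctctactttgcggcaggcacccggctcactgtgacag
Trbj1-7: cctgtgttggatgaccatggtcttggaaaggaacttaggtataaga
Trbj2-1: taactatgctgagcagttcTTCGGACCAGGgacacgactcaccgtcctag
Trbj2-7: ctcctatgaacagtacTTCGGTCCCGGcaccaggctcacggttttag
They lie at chr6:41533864-41533911, chr6:41535554-41535606, chr6:41535642-41535687, chr6:41542754-41542803 and chr6:41543810-41543856, all on the plus strand. The motif was in 11 of the 13 beta J segments and 0 on their reverse strand, against 1.36% of 50-base promoter windows (2.55% on either strand). The 2 without it were Trbj1-6 and Trbj1-7.

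The beta constant segments Trbc1 and Trbc2 are near-identical copies. Over 518 coding bases they differ at 23, with 1 difference in exon 1 and 22 after it, an identity of 95.6%. The difference in exon 1 is C260A, with Trbc1 first and positions counted from the first base of that exon. It is in capitals in the following stretches, at chr6:41538459-41538495 (+) for Trbc1 and chr6:41546971-41547007 (+) for Trbc2.
Trbc1: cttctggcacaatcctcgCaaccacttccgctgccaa
Trbc2: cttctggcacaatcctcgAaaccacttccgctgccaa
Of all 100-base windows of these transcripts, 28.7% in Trbc1 and 30.9% in Trbc2 are also in the other copy (41.1% and 44.0% of 50-base windows), so the division of reads between them is uncertain. By contrast 20 of the 22 beta V segments share no 100-base window with another annotated transcript, and 17 no 50-base window. The exceptions at 100 bases, Trbv4 and Trbv5, overlap 5830405F06Rik on the same strand.

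The libraries were of like depth, with 16281133 reads assigned to genes in WT and 15412425 in Exon2KO. Foxp3 had 6991 and 20946 reads and Cd4, the co-receptor that marks the lineage, 4593 and 5367. Cd8a had 23 and 6. Over the 17363 genes with at least 10 reads, the median log2 ratio (Exon2KO over WT, scaled for library composition by TMM) was 0.0035, with an interquartile range of -0.33 to 0.35.

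The chains moved in different directions. Beta segments held 26419 reads in WT and 21131 in Exon2KO, or 0.162% and 0.137% of each library, a log2 ratio of -0.35 (95% interval -0.38 to -0.32). Gamma segments held 140 WT and 1134 Exon2KO reads, a log2 ratio of 2.97 (2.74 to 3.25). Delta segments held 76 WT and 25 Exon2KO reads, a log2 ratio of -1.56 (-2.34 to -0.96). Over the delta constant segment alone the log2 ratio was -0.12 (-1.34 to 1.06). The beta ratio thus lay close to the lower quartile of all genes, which its interval included. The gamma ratio lay far above the interquartile range, and that of all delta segments lay below it. These ratios are of reads summed over a chain, whereas the range is of single genes. The partner of beta, the alpha chain with 160 segments, had 13752 and 10475 reads and a log2 ratio of -0.42.

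Of the 64 segments, 47 had reads in both libraries, 2 only in WT, 6 only in Exon2KO and 9 in neither. The 43 segments with at least 10 reads were tested by a 2-sided exact binomial test on the scaled library sizes, adjusted over all 17363 genes, and called at an adjusted p-value below 0.05 and at least a 2-fold ratio. By this rule 4 segments were called higher and 7 lower in Exon2KO. The background was 7.2% of all genes tested for a higher call and 6.61% for a lower one (13.8% together). The 4 higher were all gamma segments: Tcrg-C1, Tcrg-C2, Tcrg-C4 and Tcrg-V4. The 7 lower were Trbv1, Trbv12-1, Trbv12-2, Trbv23, Trbj1-7, Trdv1 and Trdv4. Tcrg-C2 (3 and 20 reads) and Tcrg-V4 (1 and 16) reached the minimum of 10 reads only through Exon2KO. Trdv1 (34 and 8) and Trdv4 (15 and 1) reached it only through WT. A minimum of 50 reads left 2 higher, Tcrg-C1 and Tcrg-C4, and 4 lower. The log2 ratio was above 0 for 13 and below 0 for 30 of the 43, with a median of -0.49. The authors' deposited table gives an adjusted p-value below 0.05 for 5 of the 64: Tcrg-C1 (8.3e-09), Trbv12-1 (0.00302), Trbv23 (0.0149), Tcrg-V4 (0.0342) and Trdv4 (0.0475). With an assumed spread between samples (a biological coefficient of variation of 0.4) edgeR's exact test called 0 segments in either direction, although 3 higher and 4 lower had an unadjusted p-value below 0.05.

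**Figure D1:**
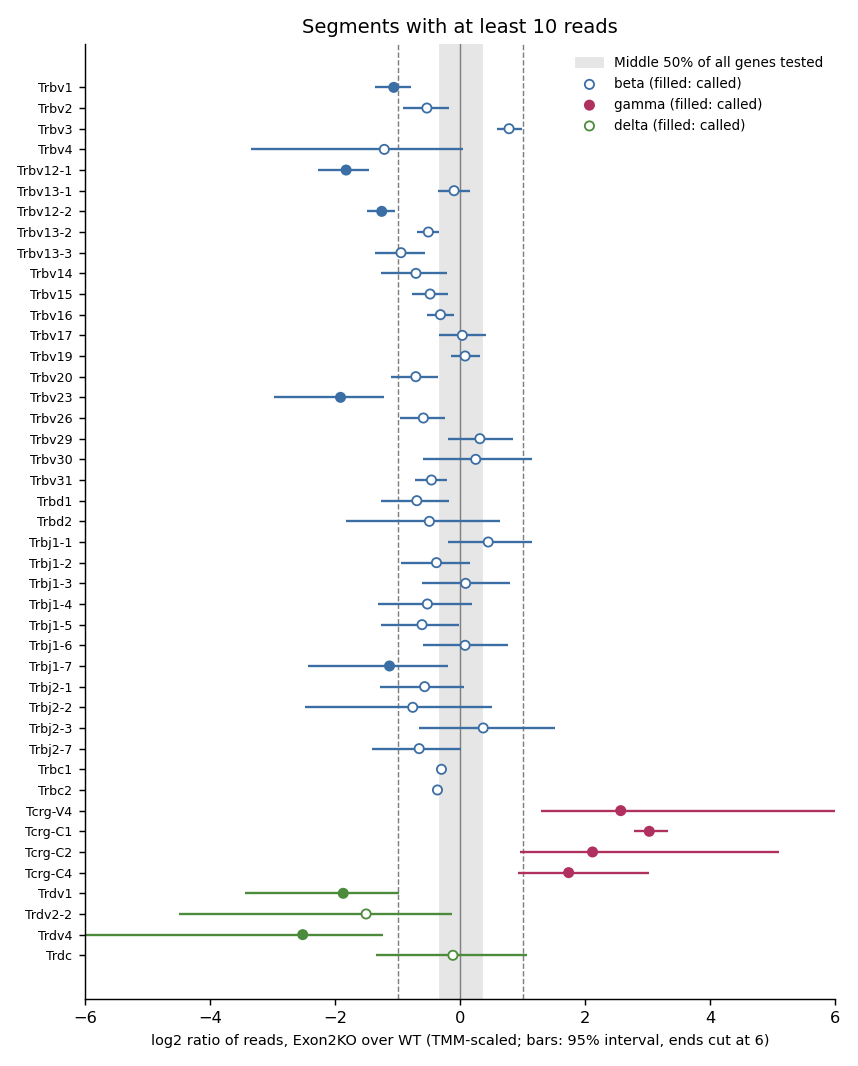
Log2 ratio of reads, Exon2KO over WT, for the 43 segments with at least 10 reads, with 95% intervals (counting error; ends cut at the axis limits), a band for the middle 50% of all genes tested and dashed lines at 2-fold. Filled points are called: 4 gamma segments lie to the right and 5 beta and 2 delta segments to the left, while Trbc1 and Trbc2 sit at -0.30 and -0.36.

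The constant segments carried most beta reads. Trbc1 (ENSMUSG00000076490) had 10118 reads in WT and 8375 in Exon2KO, which is 38.3% (37.7 to 38.9) and 39.6% (39.0 to 40.3) of the beta reads. Trbc2 (ENSMUSG00000076498) had 11270 and 8924 reads, 42.7% (42.1 to 43.3) and 42.2% (41.6 to 42.9). Both were lower in Exon2KO by less than 2-fold, with log2 ratios of -0.30 and -0.36. Among constant reads Trbc1 took 47.3% (46.6 to 48.0) in WT and 48.4% (47.7 to 49.2) in Exon2KO, and these intervals overlap. The intervals of its share of all beta reads, given above, lie narrowly apart.

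The division of the beta chain by class was similar in the 2 libraries. V segments held 17.1% of beta reads in WT and 16.2% in Exon2KO, D segments 0.360% and 0.284%, J segments 1.61% and 1.67%, and C segments 81.0% and 81.9%. V and C segments differ in length, so their levels were compared per length in the deposited FPKM (reads per length of a gene and per depth of its library). D and J segments, at 12 to 54 bases, are too short for this comparison, since a division by so few bases inflates their values. Summed FPKM were 730.6 and 536.6 for beta V, and 1889 and 1513 for beta C. The V level was 0.387 of the C level in WT and 0.355 in Exon2KO. In the alpha chain the ratio was 0.559 in WT and 0.580 in Exon2KO.

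**Figure D2:**
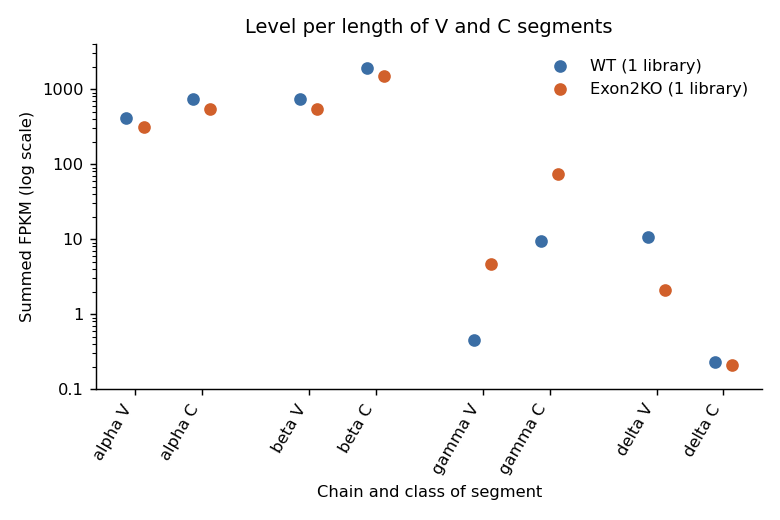
Summed deposited FPKM of the V and C segments of each chain in the WT and Exon2KO libraries (vertical axis logarithmic). Alpha and beta classes lie between 314 and 1889 in both libraries, gamma C rises from 9.36 in WT to 74.4 in Exon2KO, and delta V lies at 10.6 and 2.11 above delta C at 0.230 and 0.211.

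Among the beta V segments, which form most of the antigen-binding surface of the chain, 20 of 22 were tested. The test called 0 higher and 4 lower, against 7.2% and 6.61% of all genes, and the median log2 ratio was -0.52. Because the whole chain was lower in Exon2KO, the use of V segments is better read as a share of the V reads, 4511 in WT and 3420 in Exon2KO. By that share 3 segments stood higher in Exon2KO with intervals apart (Trbv3, Trbv19 and Trbv29) and 5 stood lower (Trbv1, Trbv12-1, Trbv12-2, Trbv13-3 and Trbv23). The other 14 had intervals that overlap. As a share of all beta reads the intervals of Trbv29 overlapped too, at 0.170% to 0.284% in WT and 0.279% to 0.439% in Exon2KO. These intervals were not adjusted for the 22 segments looked at.

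Trbv3 had the largest gain. It had 308 reads in WT and 541 in Exon2KO, or 6.83% (6.13 to 7.60) and 15.8% (14.6 to 17.1) of V reads. As a share of all beta reads this was 1.17% and 2.56%, and its log2 ratio in the library was 0.78 (0.58 to 0.99), short of the 2-fold threshold. Trbv3 was the V segment with the most reads in Exon2KO and the fifth in WT. Per length it stood second in Exon2KO, at 74.7 FPKM against 80.6 for Trbv13-2, and in WT at 42.9 against 114.

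Trbv19 had 301 and 324 reads, 6.67% (5.98 to 7.44) and 9.47% (8.54 to 10.5) of V reads. Trbv29 had 58 and 74 reads, 1.29% and 2.16%. Both gained share without a rise in reads that passed the test, with log2 ratios of 0.08 and 0.32. Trbv13-1 (268 and 255 reads) and Trbv17 (115 and 120 reads) had log2 ratios of -0.10 and 0.03, and their shares were higher in Exon2KO with overlapping intervals.

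The Trbv12 family lost the most in percentage points of V reads, whereas Trbv23 had the lowest log2 ratio of the beta V segments tested. Trbv12-2 had 544 reads in WT and 231 in Exon2KO, 12.1% and 6.75% of V reads, with a log2 ratio of -1.25 (-1.49 to -1.04) and a call that was lost with an assumed coefficient of variation of 0.2. Trbv12-1 had 238 and 67 reads, 5.28% and 1.96%, with a log2 ratio of -1.82 (-2.27 to -1.46). The pair is 88.2% identical over the coding sequence, and its last 60 coding bases, shown above, end in the same letters. Together the family had 17.3% (16.3 to 18.5) of V reads in WT and 8.71% (7.81 to 9.71) in Exon2KO. Trbv12-1 and Trbv12-2 alternate along the chromosome with Trbv13-1, Trbv13-2 and Trbv13-3. The Trbv13 family as a whole held 22.9% and 22.6% of V reads, so its share differed little beside neighbours that fell.

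Within that family the segments differed. Trbv13-2, the V segment with the most reads in WT, had 610 and 436 reads (13.5% and 12.7%). Trbv13-3 had 157 and 82 reads, 3.48% and 2.40% of V reads, and its log2 ratio of -0.95 lay just short of the 2-fold threshold.

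Trbv1 lies far upstream of the other V segments. It had 324 reads in WT and 157 in Exon2KO, 7.18% and 4.59% of V reads, and its log2 ratio of -1.06 (-1.36 to -0.79) lay just past the threshold. The call of Trbv1 was lost with unscaled total counts (log2 ratio of -0.96) and with an assumed coefficient of variation of 0.2. Trbv23 had 61 and 15 reads, 1.35% and 0.439%, with a log2 ratio of -1.91 (-2.97 to -1.22). Its neighbour Trbv24, a pseudogene outside the 64 that was looked up after the values were seen, had 45 and 11 reads.

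The other much-used V segments had shares with overlapping intervals. Trbv16 had 400 and 327 reads (8.87% and 9.56% of V reads), and Trbv15 had 246 and 179. Trbv31, which lies downstream of the constant segments in the opposite orientation, had 291 and 215. Their log2 ratios were -0.32, -0.48 and -0.46. Trbv2, Trbv14, Trbv20, Trbv26 and Trbv30 had from 22 to 159 reads in WT and from 27 to 107 in Exon2KO. At the low end Trbv4 had 14 and 5 reads, Trbv21 2 and 5, and Trbv5 3 and 0. The 10 V segments with the most reads in each library held 78.3% of V reads in WT and 81.4% in Exon2KO.

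**Figure D3:**
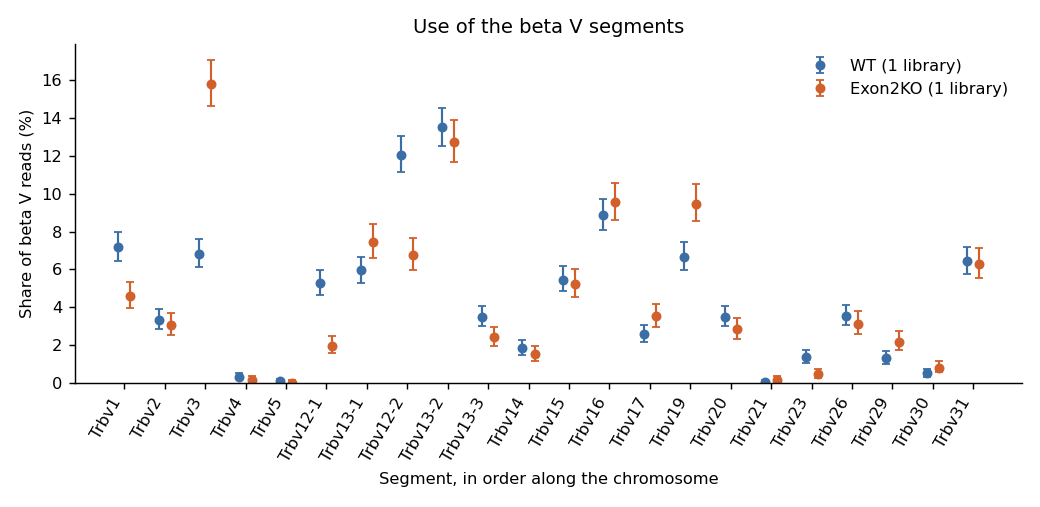
Share of beta V reads (percent, with 95% Wilson intervals) of each of the 22 Trbv segments in the WT and Exon2KO libraries, in order along the chromosome. Trbv3 stands at 6.83% in WT and 15.8% in Exon2KO, and Trbv12-2 at 12.1% and 6.75%.

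The evenness of V use was slightly lower in Exon2KO. The inverse Simpson index, the number of equally used segments that would give the same concentration, was 13.4 in WT and 11.9 in Exon2KO, and the Shannon-based number was 15.6 and 14.5. Across the 22 segments the shares of the libraries had a Pearson correlation of 0.80 and a Spearman correlation of 0.91, as a description of segments that share their libraries. To turn one set of V shares into the other, 16.2% of the V reads would have to change segment.

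The D and J segments had few reads. Whether these came from rearranged and spliced transcripts or from unrearranged ones was not tested. Trbd1 had 79 reads in WT and 49 in Exon2KO and Trbd2 had 16 and 11. Trbd1 thus took 83.2% of D reads in WT and 81.7% in Exon2KO. The first J cluster, which lies between Trbd1 and Trbc1, held 69.9% (65.4 to 74.0) of J reads in WT and 72.4% (67.6 to 76.9) in Exon2KO, an overlapping pair of intervals.

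Of the 11 Trbj segments tested 1 was called lower, Trbj1-7, a share near the background of 6.61%. It had 26 WT and 11 Exon2KO reads, a log2 ratio of -1.13 (-2.43 to -0.20) and an adjusted p of 0.0429 in the exact binomial test. The call was lost with unscaled total counts (adjusted p of 0.0672 in the exact binomial test), with a minimum of 1 read, and with an assumed coefficient of variation of 0.2 or 0.4. Trbj1-7 is 1 of the 2 segments without the J motif in the sequences above. Trbj1-1 had the highest log2 ratio among those tested, with 34 and 48 reads and 0.45. The intervals of the share of J reads overlapped for all 13 segments, and the differences in share were not tested.

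The other J segments of the first cluster had between 35 and 67 reads in WT and between 27 and 52 in Exon2KO. In the second cluster Trbj2-1 had 49 and 33 reads and Trbj2-7 had 46 and 29. Trbj2-2 had 13 and 7, Trbj2-3 had 14 and 19, Trbj2-4 had 4 and 2, and Trbj2-5 had 2 and 7. Both clusters were read in both libraries from the first segment to the last.

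**Figure D4:**
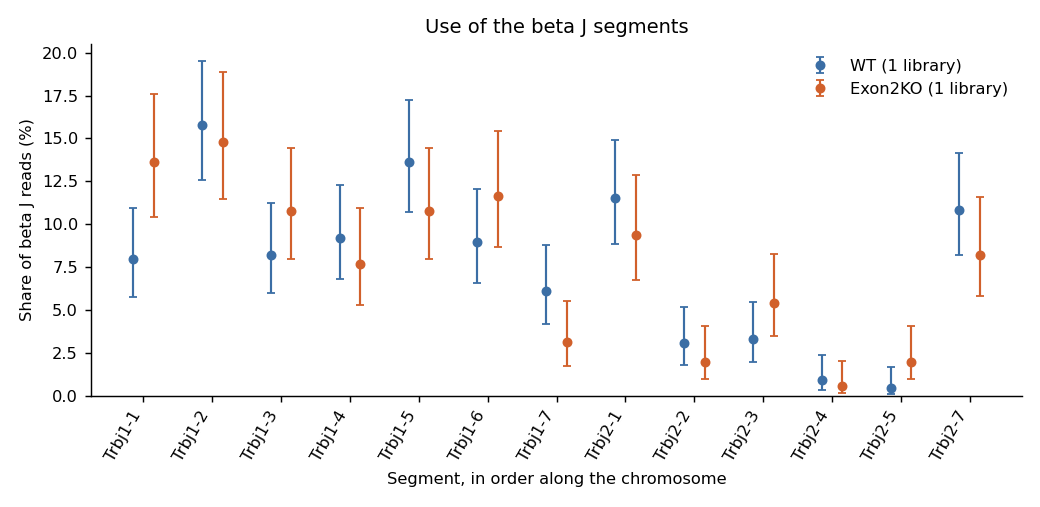
Share of beta J reads (percent, with 95% Wilson intervals) of each of the 13 Trbj segments in the WT and Exon2KO libraries, in order along the chromosome. The intervals overlap at each segment, and 69.9% of J reads in WT and 72.4% in Exon2KO lie in the first cluster.

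The gamma chain was carried almost wholly by the constant segment Tcrg-C1 (ENSMUSG00000076749). It had 123 reads in WT and 1034 in Exon2KO, or 87.9% (81.4 to 92.3) and 91.2% (89.4 to 92.7) of the gamma reads. Its log2 ratio was 3.02 (2.77 to 3.33), the highest of the 43 segments tested, with an adjusted p of 3.17e-174 in the exact binomial test. In FPKM its level was 8.44 in WT and 70.3 in Exon2KO, against 857 and 703 for Trbc1. The gamma constant level was therefore low beside the beta one in both libraries.

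Tcrg-C4 had 11 WT and 42 Exon2KO reads, a log2 ratio of 1.73 (0.92 to 3.01). Tcrg-C2 had 3 and 20 reads, with a 95% interval of the log2 ratio from 0.96 to 5.10, and Tcrg-C3 had 0 in both libraries. Each gamma constant segment with reads was thus higher in Exon2KO and passed the binomial test. Tcrg-C2, however, reached the minimum of 10 reads only through Exon2KO, the library in which it was higher. The call of Tcrg-C2 was lost with an assumed coefficient of variation of 0.2, and it fell out of the test at a minimum of 50 reads. The authors' deposited table gives adjusted p-values of 0.0664 for Tcrg-C2 and 0.0545 for Tcrg-C4. Tcrg-C1 is 97.4% identical to Tcrg-C2 and 96.9% to Tcrg-C3 over coding bases and shares 8.24% of its 100-base and 34.2% of its 50-base windows with them. The division of reads among these is uncertain, whereas Tcrg-C4, at 76.9% identity, shares none.

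Gamma V segments had 3 reads in WT and 30 in Exon2KO. Tcrg-V4 had 1 and 16 of them, with an interval of the log2 ratio from 1.29 to 9.36. It was the only gamma V segment with at least 10 reads, which it reached only through Exon2KO. Tcrg-V6 had 2 and 2. A further 4 were read only in Exon2KO: Tcrg-V5 with 5 reads, Trgv2 with 4, Tcrg-V3 with 2 and Tcrg-V7 with 1. Tcrg-V1 had 0 in both. Trgj1, a gamma J segment, had 0 reads in WT and 7 in Exon2KO, with a lower 95% limit of the log2 ratio of 0.50, and Trgj4 had 0 and 1. Trgj2 and Trgj3 had 0 in both. Most gamma V and J segments were therefore seen only in the library with more gamma constant reads, at counts too low for a test.

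V reads were few for the number of gamma constant reads. There were 2.19 (0.446 to 6.54) gamma V reads per 100 gamma C reads in WT and 2.74 (1.84 to 3.93) in Exon2KO. For beta there were 21.1 (20.4 to 21.8) and 19.8 (19.1 to 20.5). Per length the gamma V level was 0.0479 of the gamma C level in WT and 0.0621 in Exon2KO, below the beta ratios in both libraries. The WT value for gamma rests on 3 V reads.

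The delta chain went the other way and did not follow gamma. Trdc, its constant segment (ENSMUSG00000104876), had 14 WT and 13 Exon2KO reads, a log2 ratio of -0.12 (-1.34 to 1.06), so a change of 2-fold in either direction was not detectable at this depth. The fall in the chain lay in its V segments, with 62 and 12 reads. Trav21-dv12, whose symbol names both the alpha and the delta chain, was counted with alpha and is not in these totals. It had 40 reads in WT and 12 in Exon2KO. Trdv1 had 34 and 8 reads, a log2 ratio of -1.87 (-3.44 to -0.98), and Trdv4 had 15 and 1, with an interval of -9.33 to -1.23. Trdv2-2 had 12 and 3, with an interval of -4.49 to -0.14, and was not called. Trdv5, which overlaps Trdc on the opposite strand, had 1 and 0. Trdv2-1, Trdd1, Trdd2, Trdj1 and Trdj2 were without a read in both libraries, where 3 reads would be 1.84e-05% of the WT total and 1.95e-05% of the Exon2KO total.

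The make-up of the delta chain was thus unlike that of the others. In WT the delta V segments held 81.6% (71.4 to 88.7) of delta reads and Trdc 18.4% (11.3 to 28.6). In Exon2KO the shares were 48.0% (30.0 to 66.5) and 52.0% (33.5 to 70.0). There were 443 (245 to 857) delta V reads per 100 Trdc reads in WT and 92.3 (38.5 to 219) in Exon2KO, above the beta values in both. Per length the delta V level was 46.2 times the Trdc level in WT and 9.97 times in Exon2KO, but Trdc is 3865 bases long in the deposited table, against 650 to 985 for the gamma and 692 to 749 for the beta constant segments. Whether these V reads came from delta transcripts, or from alpha transcripts of the shared locus, was not tested.

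**Figure D5:**
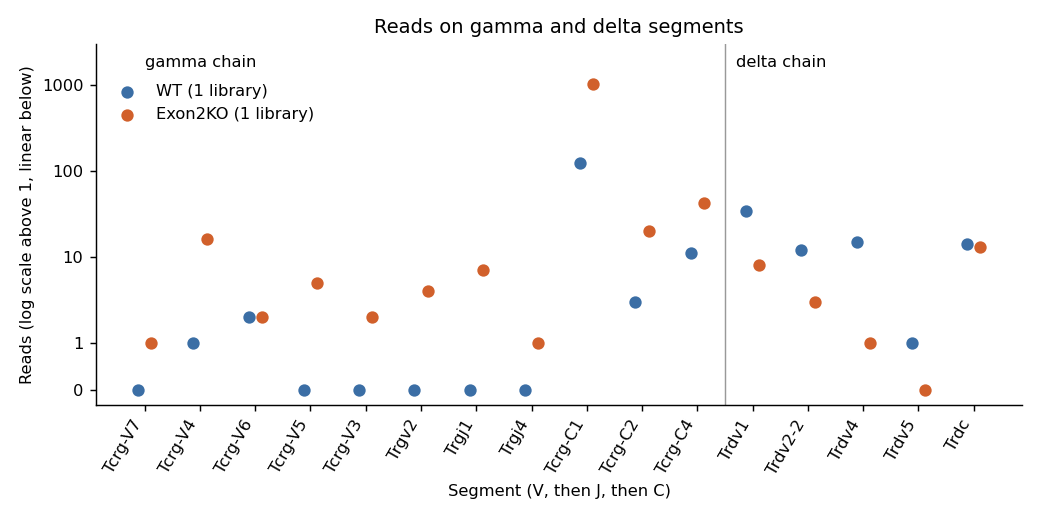
Reads on each gamma and delta segment with at least 1 read in the WT and Exon2KO libraries (vertical axis logarithmic above 1). Tcrg-C1 stands at 123 in WT and 1034 in Exon2KO, Tcrg-V4 at 1 and 16, and Trdv1 at 34 and 8, while Trdc is at 14 and 13.

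Set against the beta chain, there were 0.530 (0.446 to 0.626) gamma reads per 100 beta reads in WT and 5.37 (5.05 to 5.70) in Exon2KO. Over constant segments alone the values were 0.641 and 6.34, and over V segments 0.0665 and 0.877. Gamma was higher against beta in Exon2KO by each of these counts. Delta reads per 100 beta reads were 0.288 (0.227 to 0.360) in WT and 0.118 (0.0765 to 0.175) in Exon2KO. Over constant segments alone they were 0.0655 and 0.0751, so the delta difference rested on its V segments. For each 100 gamma constant reads there were 10.2 (5.44 to 17.7) Trdc reads in WT and 1.19 (0.630 to 2.04) in Exon2KO. Alpha reads per 100 beta reads were 52.1 (51.0 to 53.1) and 49.6 (48.4 to 50.7).

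Of 15 genes of the receptor complex and early signalling, all tested, 0 were called higher and 1 lower, near the background of 6.61% for a lower call. Their median log2 ratio was -0.30. The gene called was Cd5, an inhibitory co-receptor, whose reads were 5894 in WT and 2908 in Exon2KO, with a log2 ratio of -1.05. The CD3 chains, which pair with every receptor type, had log2 ratios of 0.00 (Cd3e), -0.25 (Cd3d), -0.16 (Cd3g) and 0.15 (Cd247). Trac had 10741 and 8049 reads and a log2 ratio of -0.44, close to those of Trbc1 and Trbc2. Of the 12 V(D)J recombination genes 9 were tested and 1 was called, near the background of 13.8%. It was the ligase gene Lig4, with 15 and 48 reads. Rag1 and Rag2, which cut the segments, and Dntt, which adds bases at the junctions, had 0 reads in both libraries.

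Markers of other cells moved beside the gamma chain. Of 16 genes known from gamma-delta T cells other than receptor segments, all tested, 13 were called higher and 0 lower, against 7.2% and 6.61% of all genes tested. Their median log2 ratio was 1.69. Their summed level in CPM (reads scaled to library size) was 962 in WT and 2246 in Exon2KO, and 0 of the 16 were without reads in either library. Among them Cd163l1, a scavenger receptor, had 4 and 56 reads, its family member 5830411N06Rik 20 and 822, the kinase gene Blk 44 and 160, and the transcription factor gene Sox13 5 and 22. Il17a, a cytokine gene that several T cell types share, had 190 and 12014, which is 12.1 and 751 CPM of the summed level. Cd27, Sox4 and Etv5 were not called, with log2 ratios of -0.26, -0.31 and 0.73. Cd27, with 9444 and 8006 reads, made up 602 CPM of the summed level in WT and 501 in Exon2KO. The 13 called genes were thus higher in the same library as Tcrg-C1, whereas Trdc was not called, and their part in the gamma result was not tested.

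The list for innate lymphoid cells of type 3, 4 of whose 13 genes are also in the gamma-delta list, had 7 called higher and 1 lower, against the same 7.2% and 6.61% of all genes, which also apply to the next lists. Its median log2 ratio was 1.04 and its summed level 1569 and 2919 CPM. Ncr1, a receptor gene of innate lymphocytes, had 0 reads in WT and 10 in Exon2KO. The gene called lower was Kit, a growth factor receptor gene and a defining marker of these cells, with 149 and 53 reads. Of the CD8 and intraepithelial T cell list 12 of 13 genes were tested, with 1 called higher, 6 lower, a median of -1.13 and a summed level of 3397 and 4087. Without Gzmb, a granule protease gene that was not called, the sum was 625 in WT and 106 in Exon2KO. It is thus Gzmb that sets the direction of the whole sum. The 6 called lower were Cd8a, Cd160, Gzma, Prf1, Ccl5 and Itgae, and Gzmk was called higher. Gzma alone held 328 CPM in WT and 10.3 in Exon2KO. Of the natural killer T cell list 8 of 9 were tested, with 2 called higher, 1 lower, a median of 0.10 and a summed level of 345 and 283. The 2 called higher were Zbtb16, which is also in the gamma-delta list, and Ncr1, which is also in the innate lymphoid list. Xcl1 was called lower, at 84 reads (WT) against 7 (Exon2KO). Its log2 ratio of -3.28 was the lowest of this list. Among the 8 tested, 4 log2 ratios lay above 0 and 4 below. Klra1 had 0 reads in both libraries. Colonic Treg cells themselves express some genes of these lists, such as Maf, and the part of other cells in any segment's reads was not tested.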

How the data were processed

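The selection of RNA, the read length and the strandedness are not given in the sources used here. The submitters' processing notes name HISAT2 2.0.5, StringTie 1.3.3b, featureCounts 1.5.0-p3, DESeq2 1.16.1 and the build mm10, without their roles. The authors deposited whole-number read counts per gene (used for every share, ratio and test), FPKM values (reads per length and library size, used to compare segments of different length), a scaled count signal (not used further), and a log2 fold change with its p-value and adjusted p-value per gene. The deposited FPKM equal those recomputed from counts and gene length times 1.03 in WT and 0.969 in Exon2KO.

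Library sizes were scaled by TMM in edgeR 4.0.16 (factors 0.964 and 1.04). Genes whose 2 libraries together held at least 10 reads were compared by a 2-sided exact binomial test with Benjamini-Hochberg adjustment over all of them. The procedure was tried on simulated counts with counting error only, which cannot show how it behaves when samples of a genotype differ. A gene was called at an adjusted p-value below 0.05 and a ratio of at least 2-fold (log2 ratio with a prior count of 2). Shares carry 95% Wilson intervals, log2 ratios Clopper-Pearson based intervals without the prior count. R 4.3.3, Python 3.11.15, numpy 2.4.6, pandas 2.3.3 and scipy 1.17.1 were used. Alternatives in scaling, assumed spread, minimum reads, fold threshold, prior count and denominators were computed.

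The segments named with values are every constant segment, the Trbd, Trbj, gamma and delta segments with at least 10 reads, the 10 most used Trbv segments, the 5 Trbv segments with the largest rise and the 5 with the largest fall in share, and any Trbv called. Any other segment or gene was named after its values were seen. The members, the 6 gene lists and the tests were chosen with earlier results of these data known. All segments have identical coordinates in GENCODE M21 (GRCm38), from whose transcripts the sequences were read.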

Additional observations from a re-analysis of the deposited data

How the results depend on the processing

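The counts of segments called, 4 higher and 7 lower, were the same with DESeq2 and with upper quartile scaling. With unscaled total counts, which move the median of all genes to 0.11, Trbv1 and Trbj1-7 were no longer called and Trbv13-1 changed sign to 0.0073, a value near 0 under both scalings. An assumed spread between samples changed the calls most. With edgeR's exact test and an assumed biological coefficient of variation of 0.2, 3 segments were called higher and 4 lower, and with 0.4 the counts were 0 higher and 0 lower. At that setting 164 genes in all (0.945%) were called. A minimum of 1 read left 4 higher and 6 lower, without Trbj1-7, and a minimum of 50 reads 2 higher and 4 lower. A 1.5-fold threshold gave 12 lower and a 4-fold threshold 1 lower. With Trdc alone the delta log2 ratio was -0.12. Gamma reads per 100 beta reads were 0.641 and 6.34 over constant segments and 0.0665 and 0.877 over V segments (WT, then Exon2KO). For delta they were 0.0655 and 0.0751 over constant segments, and 1.37 and 0.351 over V segments. In the deposited FPKM the beta chain divided into 20.0% V, 13.4% D, 14.9% J and 51.7% C in WT, and 19.2%, 10.9%, 15.9% and 54.0% in Exon2KO, where the division by the short D and J lengths inflates those classes. Trbc1 then held 45.3% and 46.4% of the constant level. No paired analysis was possible because each genotype has 1 library, and no library could be left out for the same reason. With 1 to 3 reads in a library, as for most gamma V and delta V segments, counting error alone spans several-fold.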
